A study of Mus musculus with 4 samples.

Results

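Transcripts of antibody chains and of genes that act in B cells and plasma cells were read in ERα f/f ovaries and in the tumors that ERα d/d mice form there. The genes were Ighm, Jchain (whose older symbol is Igj), Cd79a, Cd79b, Pou2af1, Mzb1 and Pigr. Every probe set that the platform annotation assigns to 1 of these symbols alone was taken, which gave 18 probe sets of 7 genes among 45101 probe sets on the array. Of these, 11 belonged to Ighm, 2 to Pigr and 1 to each of the other 5 genes. A further 4 probe sets name Ighm beside other antibody genes and were left out. The 7 genes were chosen from their signals in tumor against ovary and in the ovary at 10 against 5 months, so these signals are given as a description and without a test.

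All mice were female C57BL/6, and each array was hybridized with RNA pooled from 3 of them. The ERα f/f ovaries, the controls, carried floxed ERα genes and no Cre, with 1 pool at 5 months and 1 at 10 months of age. The ERα d/d tumors carried the same floxed genes and a Cre recombinase inserted into 1 allele of the progesterone receptor gene, again with 1 pool at each age. Cre therefore acts in cells that make the progesterone receptor, including the pituitary and the corpora lutea, and 1 intact allele of that gene is left. Ages follow the sample titles and source names. A further label field gives 5 months for both ovary pools and 10 months for both tumor pools, and by that field age and genotype cannot be told apart, nor would a difference between ages exist within a genotype.

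The values are MAS5 signals on a linear scale, and the 4 arrays had been set to 1 common level, so they are relative amounts. The median signal of an array was between 34.6 and 39.6, and Y-linked probe sets, which have no template in these female mice, had array medians of 1.84 to 3.84 and reached 34.3. A signal under its array's median is therefore treated as not above background, and a fold against such a signal is given as a lower limit, computed against the median. Esr1, the targeted gene, fell from 2232 and 2492 in ovary to 431 and 697 in tumor (limma, log2 difference -2.10 with a standard error, SE, of 0.24, adjusted p = 0.0421). Whether its probe set reads the floxed part is not known. The paper describes the gene as lost in the pituitary, with ERα immunostaining still seen in ovarian surface epithelium, theca and tumor. That account does not predict a fall of Esr1 in this tissue, so the fall is not taken as a check of the labels. Its cause was not tested. Both arrays of each group differ in age, so the p-values below rest on the spread between 2 pools that includes age. The number of arrays limits the precision. In pooled tissue RNA, fewer cells of a type and less RNA per cell cannot be told apart.

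An antibody is built of paired heavy and light chains, and a plasma cell, the end stage of the B cell lineage, makes and secretes it in large amounts. Ighm encodes the constant part of the IgM heavy chain, which a B cell carries on its surface and a plasma cell secretes. Jchain encodes the small protein that joins IgM and IgA units into polymers. Mzb1 encodes an endoplasmic reticulum protein that helps IgM to be assembled and secreted. Pigr, made by epithelial cells and not by B cells, encodes the receptor that carries J chain-containing IgA and IgM across an epithelium into secretions, as in the gut, the airways and the female reproductive tract. Cd79a and Cd79b encode the signaling pair of the B cell receptor, and Pou2af1 encodes a coactivator that works with octamer-binding factors at antibody gene promoters.

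The promoters of 3 of the genes are shown because the genes differ in kind: Jchain is a gene of antibody-secreting cells, Pigr a gene of epithelium, and Pou2af1 encodes a factor that acts through the octamer motif. Each run is the 250 bases before the start of the gene, 5′ to 3′ along the gene's own strand, from RefSeq on GRCm38.p6. The Jchain run is chr5:88527898-88528147 (minus strand), the Pigr run chr1:130826434-130826683 (plus strand) and the Pou2af1 run chr9:51213440-51213689 (plus strand). Capitals mark matches on either strand to ATTTGCA, which is the octamer ATTTGCAT without its last letter, and to the E-box CACGTG.
Jchain: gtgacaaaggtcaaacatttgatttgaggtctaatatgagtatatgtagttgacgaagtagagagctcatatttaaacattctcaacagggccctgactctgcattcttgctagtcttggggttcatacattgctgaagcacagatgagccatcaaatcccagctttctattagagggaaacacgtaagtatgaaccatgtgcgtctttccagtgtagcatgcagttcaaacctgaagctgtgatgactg
Pigr: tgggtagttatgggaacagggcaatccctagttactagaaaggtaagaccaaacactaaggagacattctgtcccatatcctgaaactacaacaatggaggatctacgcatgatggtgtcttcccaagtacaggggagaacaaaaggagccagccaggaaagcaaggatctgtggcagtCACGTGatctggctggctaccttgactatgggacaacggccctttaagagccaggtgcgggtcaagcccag
Pou2af1: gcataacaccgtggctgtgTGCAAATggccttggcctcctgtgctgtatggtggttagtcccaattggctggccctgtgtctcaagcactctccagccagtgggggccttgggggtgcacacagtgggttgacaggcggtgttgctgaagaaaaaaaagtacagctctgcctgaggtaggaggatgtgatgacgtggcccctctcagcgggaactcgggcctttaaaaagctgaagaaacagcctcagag
The octamer itself was in 1.6% of 32851 promoter windows of this length, its first 7 letters in 3.56% and CACGTG in 6.02%. The Pigr window held CACGTG once, starting 71 bases before the gene, and the Pou2af1 window held the first 7 letters of the octamer once, on the opposite strand, starting 231 bases before the gene. The Jchain and Cd79a windows held none of the 3 motifs. The ATTTGCA search includes every octamer match. These matches are a description of the letters and say nothing of binding.

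Ighm was read by more probe sets than any other of the 7 genes. Its brightest probe set, 1427351_s_at, read 301 and 1614 in ovary at 5 and 10 months and 74.0 and 284 in tumor. The ovary pool was above the tumor pool of the same age by 4.06-fold at 5 months and by 5.68-fold at 10 months. Both tissues were higher at 10 months, by 5.37-fold in ovary and by 3.84-fold in tumor, so that the tumor pool at 10 months (284) nearly reached the ovary pool at 5 months (301). The second brightest, 1425385_a_at, read 359.5 and 854 in ovary against 60.4 and 129 in tumor. It kept both ovary pools above both tumor pools, and its tumor pool at 10 months stayed well under the ovary pool at 5 months.

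Of the 11 Ighm probe sets, 5 were brighter than the array median on 2 or more arrays, and all 5 had both ovary pools above both tumor pools. The remaining 3 of these 5 read 94.1 and 408 in ovary against 57.9 and 87.8 in tumor (1427329_a_at), 96.1 and 165 against 82.1 and 89.9 (1427870_x_at), and 41.2 and 78.3 against 17.1 and 21.8 (1425247_a_at). In 4 of the 5, above the median on all 4 arrays, ovary exceeded tumor by 1.47-fold to 6.29-fold on the mean of both ages. The last, 1425247_a_at, had both tumor signals under the array medians, and in it ovary exceeded tumor by at least 1.57-fold. Among all probe sets that passed the same filter, 26.0% had both ovary arrays above both tumor arrays and 47.8% were higher at 10 months in ovary, and since the genes were chosen by these contrasts nothing is read from their share. All 5 were also higher at 10 than at 5 months in ovary, by 1.72-fold to 5.37-fold, and the 4 that were above the medians in tumor were higher at 10 months there too, by 1.09-fold to 3.84-fold. The other 6 Ighm probe sets were at 0.318 to 45.6, passed the median on at most 1 array, and so have no measured order. As read, 2 had both ovary pools above both tumor pools (19.5% of probe sets under the filter did) and 2 were higher at 10 months in ovary (39.5%). An x or s in a probe set's name marks probes that can also bind related transcripts, and antibody genes share much sequence, so Ighm signals may include other heavy chains.

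**Figure D1:**
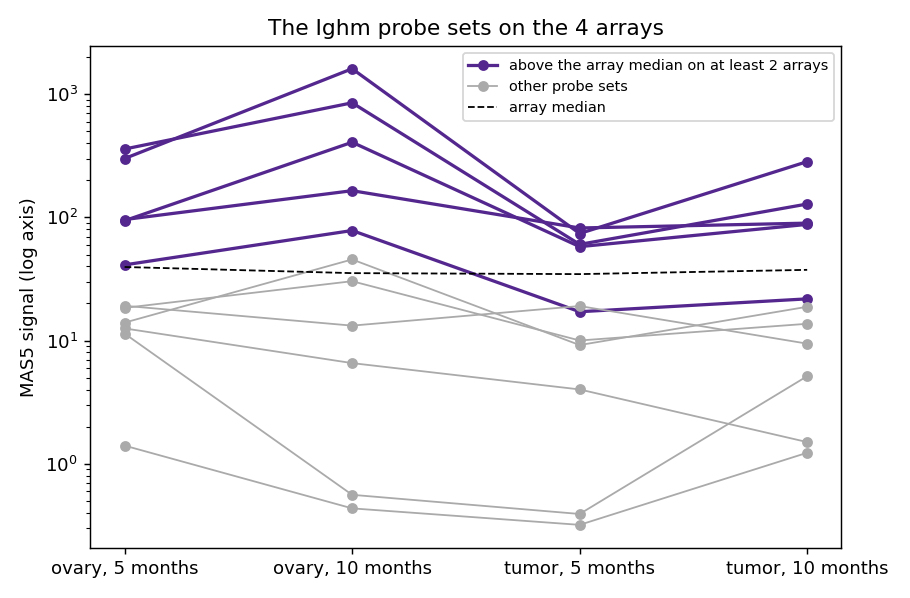
MAS5 signal (log axis) of the 11 Ighm probe sets on the 4 arrays, each array a pool of 3 mice, with 1 line for each probe set and the array median as a dashed line. The 5 probe sets above the median on at least 2 arrays (purple) peak in the ovary pool at 10 months, and the other 6 (grey) lie mostly under the median.

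Jchain had 1 probe set, 1424305_at, with signals of 299 and 1251 in ovary at 5 and 10 months, with 115 and 82.5 in tumor. Both ovary pools were above both tumor pools, and the gap was 2.60-fold at 5 months and 15.2-fold at 10 months. In the ovary the signal was 4.18-fold higher at 10 months, while in the tumor it was 0.717 times its value at 5 months. The 2 ages thus ran in opposite directions for Jchain in ovary and tumor, as they did for 52.3% of 10558 genes above the median on all 4 arrays, whereas the 4 Ighm probe sets above it on all 4 ran upward in both. Whether the age difference of Jchain differs between the tissues could not be tested with 1 array at each age.

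Mzb1 (1428947_at) lay nearer to background, at 58.7 and 74.1 in ovary against 24.8 and 35.8 in tumor. Both tumor signals were under the array medians, so ovary exceeded tumor by at least 1.83-fold. The ovary pool at 10 months was 1.26-fold higher than that at 5 months, a smaller step than those of Jchain and the brighter Ighm probe sets, and the tumor pools have no measured order. Mzb1 passed the signal filter through the ovary arrays alone.

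Cd79a, Cd79b and Pou2af1 were not above background on any of the 4 arrays. Cd79a read 8.02 and 6.07 in ovary against 9.19 and 3.96 in tumor. Cd79b read 22.0 and 24.8 against 16.1 and 19.2, and Pou2af1 read 6.54 and 14.8 against 13.2 and 4.44. The 3 genes lay between 3.96 and 24.8, under every array median, and no fold is given for them. These receptor and coactivator genes were thus not above background in the same pools in which Ighm and Jchain were bright.

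**Figure D2:**
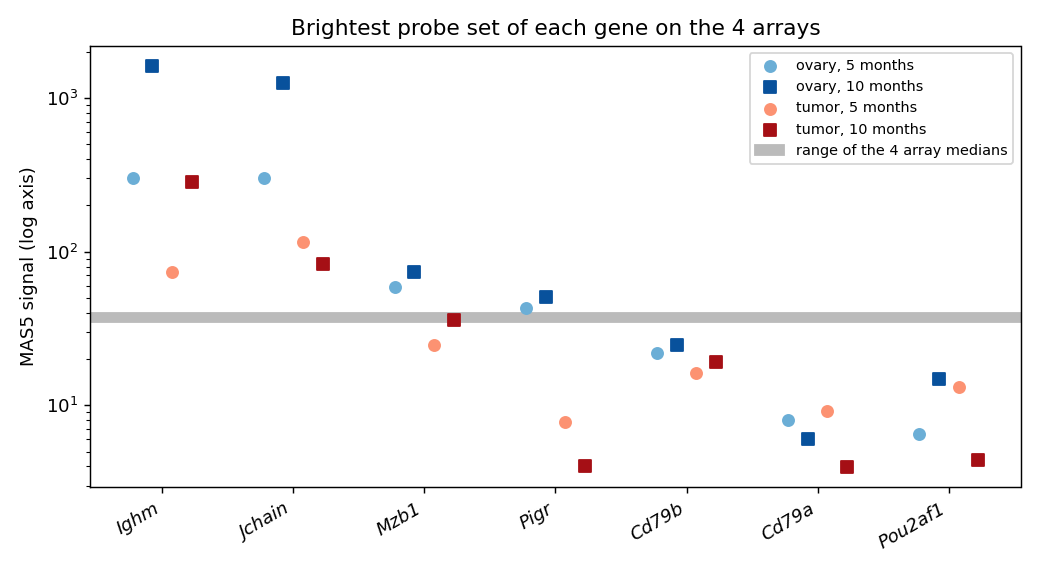
MAS5 signal (log axis) of the brightest probe set of each of the 7 genes on the 4 arrays, blue for ovary and red for tumor, circles for 5 and squares for 10 months, with the range of the array medians in grey. Ighm and Jchain each have their highest signal in the ovary pool at 10 months (1614 and 1251), while Cd79b, Cd79a and Pou2af1 lie under the grey band on all 4 arrays.

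Pigr was low in the ovaries and lower in the tumors. Its brighter probe set, 1455490_at, read 42.8 and 50.4 in ovary against 7.81 and 4.01 in tumor, and the other, 1450060_at, read 24.2 and 30.8 against 4.68 and 6.90. The second was not above background on any array, and the first was above it in ovary alone. Against the medians, ovary exceeded tumor by at least 1.29-fold in the first. Its ovary pools were 1.18-fold apart.

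Read over all genes, 11744 passed the signal filter, a signal over the median of 2 or more arrays, and 4 of the 7 genes were among them, each through its brightest probe set. By limma, 208 genes (1.77%) had an adjusted p under 0.05 for tumor against ovary, 84 higher (0.715%) and 124 lower (1.06%), which is the background for the lists below. Both ovary arrays were above both tumor arrays in 27.8% of genes tested and in all 4 of these, from which nothing is read, because the genes were chosen by this contrast and Mzb1 and Pigr passed the filter through the ovary arrays alone. Tumor was over the age-matched ovary at both ages in 29.5% of genes tested and under it at both in 33.8%. Between the ovary pools, 43 genes (0.366%) were at least 2-fold higher at 10 months, and Ighm was the fifth and Jchain the sixth in that order. Mzb1 and Pigr were not among these. Between the tumor pools, 471 genes (4.01%) were at least 2-fold higher at 10 months, Ighm among them, and 400 (3.41%) at least 2-fold lower, none of the 4 among them. The standard deviation of the log2 difference between ages over all genes was 0.29 in ovary and 0.60 in tumor.

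Other antibody chain genes were read from a list of 27 symbols, of which 8 had a probe set of their own and 6 passed the filter. Igha, the gene of the IgA heavy chain, read 999.8 and 3276 in ovary at 5 and 10 months, with 659 and 290.0 in tumor (log2 difference -2.05, SE 0.67, adjusted p = 0.206 from limma). Like Jchain it was higher at 10 months in ovary, by 3.28-fold, and lower at 10 months in tumor, at 0.440 times its value at 5 months. The kappa light chain gene Igkv8-30 read 243 and 1871 in ovary against 121 and 111 in tumor (log2 difference -2.54, SE 0.94, adjusted p = 0.254), and its 7.70-fold step between the ovary pools was the largest of the 11744 genes. The lambda light chain gene Iglv1 read 44.3 and 118 in ovary against 4.25 and 66.4 in tumor (adjusted p = 0.488). Its tumor signal at 5 months was not above background, and with the median in its place ovary exceeded tumor by at least 1.51-fold. Of the 6 genes, 0 passed an adjusted p of 0.05 by limma in either direction (3 had an unadjusted p under 0.05, all lower in tumor, and 1 by the methods' t-test), and their median log2 difference was -1.60 against -0.02 over all genes. Among the 3 was Ighg3, whose tumor signals of 26.0 and 20.6 were not above background. It passed the filter through the ovary arrays alone, so nothing is read from its p-value or from its part in the median. Igha was the eighth and Iglv1 the sixteenth gene in the order of the ovary's difference between ages. With Igkv8-30, 3 of the 6 genes were thus at least 2-fold higher at 10 months in ovary (0.366% of all genes were). Ighg3, at 0.975 times its value at 5 months, Igk and Igll1 were not. The ovary signals of Igk and Igll1 at 5 months were not above background. The list was chosen with earlier results of these data known, so nothing is read from this share. The constant kappa gene Igkc had no probe set of its own and is not analysed here.

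**Figure D3:**
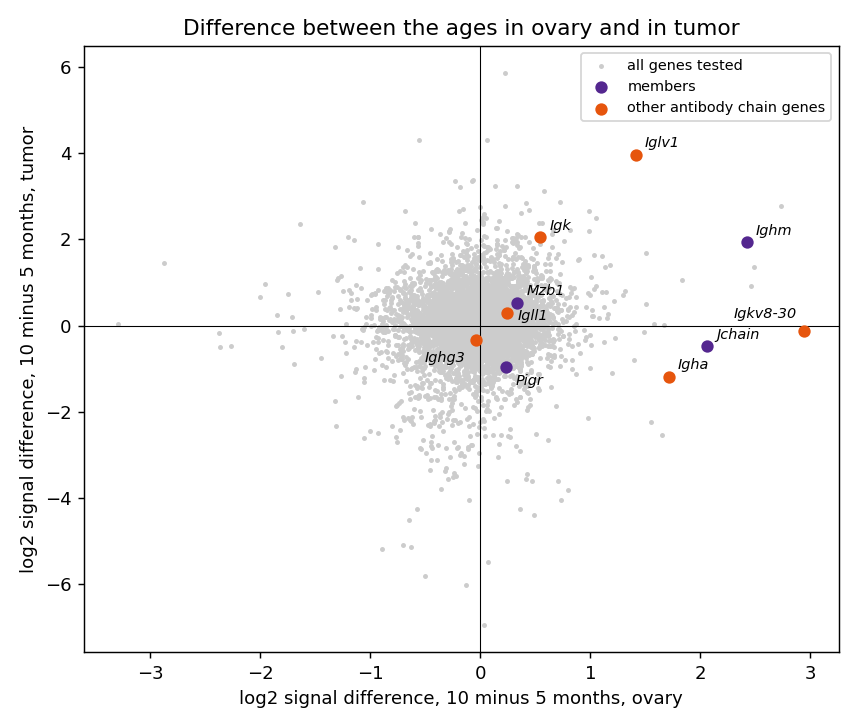
Log2 signal difference, 10 minus 5 months, in ovary (x axis) and in tumor (y axis) for each of the 11744 genes, each from 1 array at each age, with the genes described here in purple and other antibody chain genes in orange. Igkv8-30, Ighm, Jchain, Igha and Iglv1 lie far to the right, with Ighm (1.94) and Iglv1 above 0 in tumor and Jchain (-0.48) and Igha (-1.18) below it. The tumor values of Mzb1, Pigr and Ighg3 rest on signals under the array medians, and those of Iglv1 and Igk on a signal under the median at 5 months.

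Some defining markers of the B cell were not above background and others were. Of 36 genes listed for B cells, 34 had a probe set of their own, 16 of these were above no array median, and 14 passed the filter. Ms4a1, the gene of CD20, read 23.8 and 19.3 in ovary against 13.1 and 11.6 in tumor, and Pax5, the factor that maintains B cell identity, read 6.44 and 2.81 against 13.0 and 13.6. Neither was above background on any array. Cd22, an inhibitory receptor of B cells, read 47.0 and 46.3 in ovary against 90.5 and 191 in tumor (log2 difference 1.50, SE 0.39, adjusted p = 0.144). It was thus above background on every array, with both tumor pools above both ovary pools, the reverse of Ighm and Jchain. Ly6d, a surface antigen gene of the lymphoid lineage, was at least 1.70-fold higher in tumor, its ovary signals not being above background (adjusted p = 0.152). H2-Ob, a regulator of antigen loading, was at least 1.47-fold higher in ovary, its tumor signals not being above background (adjusted p = 0.233). Of the 14, 0 were called higher or lower by limma (6 had an unadjusted p under 0.05, 3 in each direction, and 1 by the methods' t-test), with a median of -0.10. Between the ovary pools, 0 of the 14 were 2-fold apart.

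Among markers of plasma cells some were at background and some bright, and several of them are also made by other secretory cells. Irf4, a factor that drives plasma cell formation, read 9.92 and 12.5 in ovary against 16.5 and 9.54 in tumor, and Tnfrsf17, the gene of the plasma cell receptor BCMA, 9.76 and 13.1 against 14.3 and 7.53. Neither was above background. Prdm1, the gene of the plasma cell factor Blimp-1, read 67.4 and 48.6 against 39.3 and 51.7 (adjusted p = 0.617). Sdc1, the gene of syndecan-1, which epithelial cells also make, read 791 and 748 against 522 and 407 (log2 difference -0.74, adjusted p = 0.0978), and Xbp1, a factor of the secretory pathway, 3158 and 3667 against 2869 and 2783 (log2 difference -0.27, adjusted p = 0.278). The endoplasmic reticulum genes Sdf2l1 and Creld2 had the largest differences of the list, log2 differences of -1.33 and -0.97 (adjusted p = 0.133 and 0.152). Of 27 genes, 19 were tested, 13 were lower than in the age-matched ovary at both ages (33.8% of all genes were) and 2 higher (29.5%), and 0 were called by limma (10 had an unadjusted p under 0.05, 8 lower and 2 higher, and 4 by the methods' t-test). Their median was -0.35, and 0 of the 19 were 2-fold apart between the ovary pools.

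**Figure D4:**
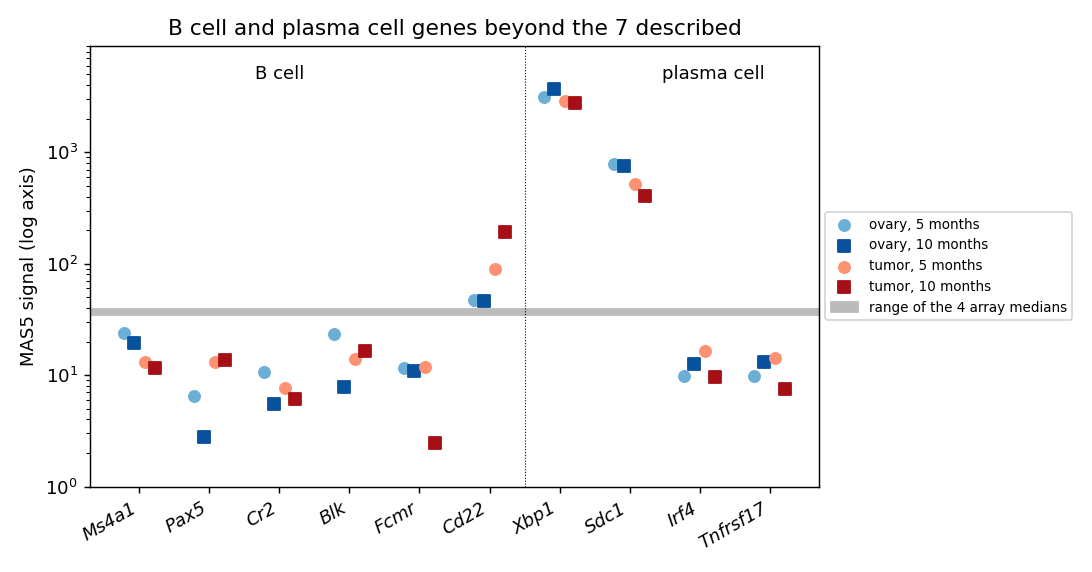
MAS5 signal (log axis) of 6 B cell and 4 plasma cell genes outside the 7 described here, on the 4 arrays, with the range of the array medians in grey. Ms4a1, Pax5, Cr2, Blk, Fcmr, Irf4 and Tnfrsf17 lie under the grey band on every array, and Cd22 lies above it, at 47.0 and 46.3 in ovary and 90.5 and 191 in tumor. Cr2, Blk and Fcmr were chosen after their values were seen, and the 6 do not stand for the B cell list. Of its 34 genes with a probe set, 16 were above no array median and 14 passed the filter. Fcer2a, not shown, was above background in tumor at 10 months alone (57.0).

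Genes of the signaling chain below the B cell receptor, which other leukocytes share, were mostly measurable. Of 15 tested, 0 were called by limma (3 had an unadjusted p under 0.05, 2 higher and 1 lower, and 2 by the methods' t-test), with a median of 0.06. The kinase gene Syk had the largest difference, at 63.2 and 59.6 in ovary and 130.2 and 340 in tumor (log2 difference 1.78, adjusted p = 0.144), followed by Rasgrp3, an activator of Ras (log2 difference -0.94, adjusted p = 0.209). Among factors that attract or keep B cells and plasma cells, 6 of 17 were tested, 1 was higher, 1 lower and 4 did not pass. Cxcl12, the chemokine that holds plasma cells in their niche, fell from 962 and 1089 to 433 and 445 (log2 difference -1.22, SE 0.11, adjusted p = 0.0272), and Vcam1, an adhesion molecule of that niche, rose from 199.5 and 257 to 2174 and 1836 (log2 difference 3.14, SE 0.17, adjusted p = 0.0205). Both tumor signals of Cxcl12 lay under both ovary signals and close to each other. Cxcl13, which draws B cells into follicles, read 45.7 and 23.0 in ovary and 35.6 and 42.0 in tumor (adjusted p = 0.813). Cxcl12 lost its call with age as a block (limma, adjusted p = 0.0604) and without the variance trend (0.0540). No gene of all those tested kept a call without either ovary array. That loss, shared by Cxcl12, Vcam1 and the called genes below, says nothing of any single gene.

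Pigr stands among genes of antibody transport and of epithelium. Of 11 transport and Fc receptor genes tested, 1 was called higher, 0 lower and 10 in neither direction, with a median of 0.52. Cd5l, which encodes a macrophage protein carried by IgM in blood, rose to 265 and 425 in the tumors from ovary signals of 32.9 and 19.6 that were not above background, at least 8.99-fold (adjusted p = 0.0330; 0.0633 with age as a block, 0.0524 without the variance trend, and 0.359 and 0.433 without the ovary array at 5 and at 10 months). Fcgrt, the gene of the neonatal Fc receptor that carries IgG, read 547 and 548 in ovary and 746 and 663 in tumor (log2 difference 0.36, adjusted p = 0.181). Ltf, the gene of the secreted antimicrobial protein lactoferrin, read 882 and 1129 in ovary against 156 and 49.5 in tumor (log2 difference -3.51, SE 0.55, adjusted p = 0.0604). Ltf had its lowest signal in the tumor pool at 10 months, while the tumor pools of Pigr, both under background, have no measured order.

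Of 22 epithelial genes tested, 0 were called higher, 5 lower (Cldn7, Pax8, Ehf, Ap1m2 and Cldn10) and 17 in neither direction, and the median was -1.13. None of the 5 kept its call with age as a block (limma, adjusted p from 0.0546 to 0.0884). Ap1m2 and Cldn10 lost it without the variance trend (0.0539 and 0.0524), and Ap1m2 also without the filter (0.0508). Pax8 read 100 and 103 in ovary and was not above background in tumor, so ovary exceeded tumor by at least 2.82-fold. The paper reports the reverse for PAX8 protein, with immunostaining raised in ERα d/d ovaries. Protein was not measured here. The oviduct glycoprotein gene Ovgp1 read 11597 and 11819 in ovary and 4108 and 918 in tumor, and Epcam 594 and 723 against 251 and 634 (limma, adjusted p = 0.149 and 0.467). Krt8, a keratin gene, read 978 and 1137 against 414 and 1400.4 (adjusted p = 0.710). The summed signal of the 23 epithelial genes with a probe set was 21140 and 22635 in ovary and 8972 and 14493 in tumor, with Ovgp1 the largest part of the ovary sums. Without Ovgp1 the sums were 9543 and 10816 in ovary against 4864 and 13576 in tumor, so tumor was lower at 5 months in both sums, and at 10 months only in the sum that holds Ovgp1. The part of these genes in the difference of Pigr was not tested.

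**Figure D5:**
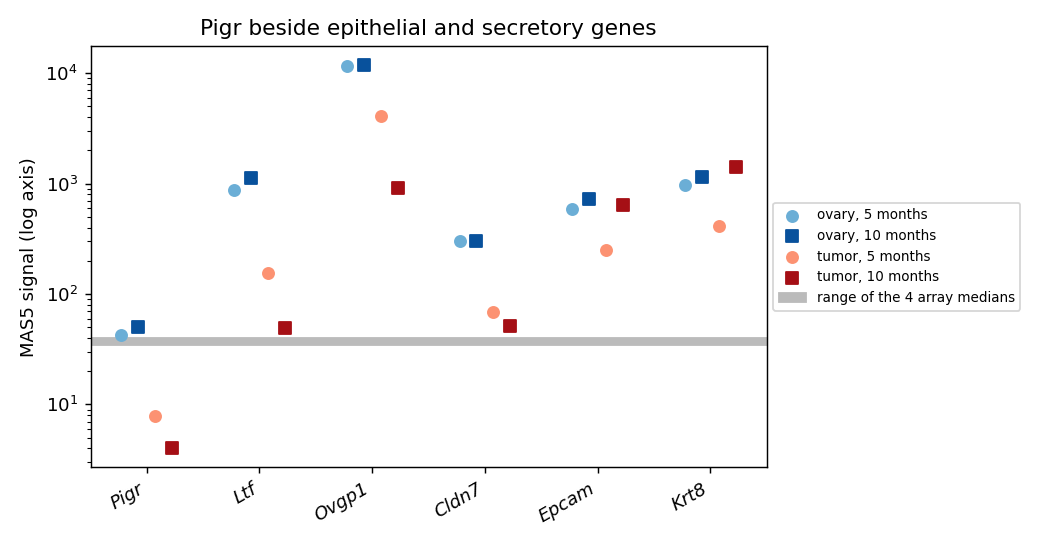
MAS5 signal (log axis) of Pigr beside the secretory genes Ltf and Ovgp1 and the epithelial genes Cldn7, Epcam and Krt8 on the 4 arrays, with the range of the array medians in grey. Ltf and Ovgp1 have their lowest signal in the tumor pool at 10 months (49.5 and 918), Pigr is under the band in both tumor pools (7.81 and 4.01), and Krt8 has its highest in that at 10 months (1400.4).

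Genes of leukocytes as a whole were read beside the antibody chains. All 10 leukocyte genes tested, Ptprc (CD45) among them at 251 and 336 in ovary and 279 and 665 in tumor, exceeded the age-matched ovary at both ages (29.5% of all genes did), 1 was called higher by limma (Arhgdib, log2 difference 1.34, adjusted p = 0.0328) and 9 did not pass, with a median of 1.07. Arhgdib lost its call with age as a block (limma, adjusted p = 0.0641) and without the variance trend (0.0509). Itgb2, an integrin gene of leukocytes, read 109 and 141 against 193 and 796 (adjusted p = 0.285). Their summed signal was 1758 and 2193 in ovary and 2767 and 5799 in tumor. Of 16 macrophage genes, 14 were above the ovary at both ages, 1 was called higher and 15 did not pass (median 1.34). The called gene was C1qa, a complement gene (log2 difference 1.21, adjusted p = 0.0421), whose call was lost with age as a block (0.0668), without the variance trend (0.0721) and without either ovary array (0.434 and 0.456). Cd68 and Lyz2, a lysosomal protein and a lysozyme of macrophages, had log2 differences of 2.18 and 2.01 (adjusted p = 0.126 and 0.0698). For the 18 macrophage genes with a probe set, the summed signal was 7617 and 6989 against 15315 and 30194. Of 8 genes of T and NK cells, 0 were called (0 also had an unadjusted p under 0.05, and 0 by the methods' t-test). Of the T cell genes Cd3e, Cd3d and Cd3g, Cd3e was not above background on any array. Cd3d read 28.5 and 42.4 in ovary against 37.2 and 55.2 in tumor, above background except in ovary at 5 months (limma, adjusted p = 0.657). Cd3g read 25.4 and 37.4 against 26.1 and 58.2, above background at 10 months alone (adjusted p = 0.775). Il7r, a cytokine receptor gene, and Ccl5, a chemokine gene, had log2 differences of 1.50 and 1.31 (adjusted p = 0.346 and 0.363). Of 5 MHC class II genes tested, which B cells, macrophages and dendritic cells share, 0 were called (0 with an unadjusted p under 0.05), with a median of -0.04. The part of these cell types in the signals of the antibody chains was not tested.

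The tissue itself, lymph node stroma, blood and fat, and housekeeping genes were read beside these. Of 13 ovarian genes tested, 1 was higher (Cyp17a1, a steroid hydroxylase gene, log2 difference 1.67, adjusted p = 0.0256) and 12 did not pass (median -0.25). Cyp17a1 lost its call without the variance trend (limma, adjusted p = 0.0517). Amh, a granulosa cell hormone gene, read 120.4 and 69.2 in ovary and 75.1 in tumor at 5 months, and was not above background in tumor at 10 months (adjusted p = 0.426). Adipoq, a fat cell gene, read 1092 and 736 in ovary and 503 and 162 in tumor (adjusted p = 0.220), and Pdpn, the gene of podoplanin, 770.2 and 705 against 1114 and 1554 (adjusted p = 0.106). Of 5 genes of lymph node stroma, blood and fat tested, 0 were called (3 had an unadjusted p under 0.05), and Madcam1, the address molecule of mucosal vessels, was not above background. Of 9 housekeeping genes, 0 were called (2 had an unadjusted p under 0.05), with a median of -0.08, and Pgk1 and Tbp had log2 differences of -0.35 and -0.30 (adjusted p = 0.221 and 0.390). The 3′ over 5′ ratio of control probe sets, a measure of RNA length, was 1.09 to 1.13 for Gapdh on 3 arrays and 1.41 on the tumor array at 10 months, the array with the lowest Jchain signal. For actin this ratio was larger throughout: 2.33 in each ovary pool, 2.52 in the younger tumor pool and 2.96 in the older. By actin, both tumor pools thus exceeded both ovary pools. The part of RNA length in the Jchain signal, or in the other differences between tumor and ovary, was not tested.

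Genes with patterns most like those of the 4 measured genes were found by the root mean square difference of log2 signals over the 4 arrays, each gene centred on its own mean. The patterns closest to Jchain were those of Igkv8-30 (0.34), Igha (0.41) and Sema3d (0.52). Those closest to Ighm, read from its brightest probe set alone, were farther off, Arg1 (0.67), Slc44a4 (0.69) and Aoc1 (0.72), and hold no antibody gene. The tumor signals of Arg1 and Slc44a4 were not above background, so their tumor pools have no measured order. Closest to Mzb1 were Mn1 (0.03), Insl6 (0.03) and Mapkapk3 (0.06), and to Pigr Sox3 (0.10), Dpt (0.12) and Padi1 (0.14), where the tumor signals of Mzb1 and Pigr were not above background. With 4 points, a small difference is common among 11744 genes, and nothing of shared function is meant.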

How the data were processed

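RNA of 4 pools, each of 3 mice, was measured on Affymetrix mouse arrays. Per the labels, the authors used MAS5 (Expression Console 1.1, Affymetrix), and they deposited 1 signal intensity on a linear scale for each of 45101 probe sets. The trimmed mean of each array was 150.0, so amounts are relative. Detection calls were not used here.

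The probe table names 1 gene for 34945 probe sets outside the controls and several for 932, which were left out. Symbols were updated through RefSeq (GRCm38.p6), in which 34741 matched. Signals were taken as log2 values without a pseudocount. Probe sets brighter than the array median on 2 or more arrays were kept, and each gene was read from its brightest. Tumor was compared with ovary, 2 arrays against 2, by limma 3.58.1 in R 4.3.3, with Benjamini-Hochberg adjustment over 11744 genes. The fit used lmFit and eBayes with a variance trend, with 2.94 prior degrees of freedom beside 2 residual ones. The step was tested on simulated data with 1 spread for all genes and both groups, taken from the ovary arrays. The tumor arrays lay farther apart, so the simulation does not cover their spread. Groups follow the genotype label.

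The genes, the 15 lists (273 symbols, 159 tested) and the rule for named genes were chosen with earlier results of these data known. Named from the lists were the called genes, the 2 with the largest change in the same direction at both ages in each list, and defining markers. From the Y-linked list, 0 genes passed the filter. Genes named outside this rule (Cr2, Blk, Fcmr, Fcer2a, Cxcl13, Madcam1, Cd3d, Cd3g, Ighg3, Igk and Igll1) were chosen after their values were seen. Alternatives were quantile normalization, equal 75th percentiles, a pseudocount (32), the array median as a floor, no filter, a filter on all 4 arrays, averaging the probe sets of a gene, age as a block, no variance trend, the two-tailed Student test of the methods, and leaving out each array. Figures were drawn with matplotlib 3.10.9.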

Additional observations from a re-analysis of the deposited data

Results flagged for a closer look

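For 21 of the genes read above, each over the array median on all 4 arrays, the signal at 10 against 5 months differed in direction between ovary and tumor. This held for 52.3% of the 10558 genes above the median on all 4 arrays, and none of the differences was tested, since 1 array at each age leaves no measure of spread. Jchain was higher at 10 months in ovary (log2 difference 2.06) and lower in tumor (-0.48), 2.54 apart. Igha (1.71 and -1.18) was 2.90 apart and Igkv8-30 (2.94 and -0.13) 3.07 apart. Also higher at 10 months in ovary and lower in tumor were Ovgp1, 2.19 apart, Ltf, 2.01 apart, Sdf2l1, 1.39 apart, Creld2, 1.08 apart, Vcam1, 0.61 apart, Ehf, 0.49 apart, Cldn7, 0.43 apart, Pgk1, 0.38 apart, Xbp1, 0.26 apart, and Fcgrt, 0.17 apart. Lower at 10 months in ovary and higher in tumor were Cd68, with an ovary minus tumor value of -1.75, Syk with -1.47, Lyz2 with -1.26, Cd22 with -1.10, Prdm1 with -0.87, Pdpn with -0.61, C1qa with -0.40 and Cldn10 with -0.21. Some of these genes were nearly unchanged between ages in 1 tissue. In ovary these include Fcgrt (0.0005), Cldn7 (0.002), Ovgp1 (0.03) and Cd22 (-0.02), and in tumor Cldn10 (0.01) and Xbp1 (-0.04). Over all genes the standard deviation was 0.29 in ovary and 0.60 in tumor, so no direction is read from such values.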

How the results depend on the processing

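The signals carry no counts, and what limits these results is the number of arrays and, for Pigr, Mzb1, Cd79a, Cd79b and Pou2af1, signals near background. The calls over all genes rest on single arrays. Higher and lower in tumor were 84 and 124 genes, 12 and 21 with age as a replicate block, 17 and 61 without the variance trend, and 660 and 899 by the methods' t-test at its threshold, of which 0 and 0 were left after Benjamini-Hochberg adjustment. Lower genes numbered 213 with a floor at the array median and 206 with a pseudocount of 32. Leaving out 1 array gave between 0 and 1139 higher and between 0 and 1358 lower genes, 0 without either ovary array, where 931 and 863 genes still had an unadjusted limma p under 0.05. Among the listed genes, 5 were higher and 6 lower, 2 and 0 with the age block, 1 and 3 with no variance trend, and between 0 and 53 higher and 0 and 45 lower when 1 array was left out.

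Ighm, Jchain, Mzb1 and Pigr were chosen by the contrast of tumor with ovary. Both ovary pools lay above both tumor pools in each, so leaving out an array could not reverse the direction. The tumor to ovary difference kept its direction under every alternative run, from which nothing is read. Without 1 array it lay between -3.48 and -1.05 on the log2 scale for Ighm and between -3.68 and -1.62 for Jchain, against -2.26 and -2.65, and was smallest for both without the ovary array at 10 months. With its probe sets averaged, the difference between ages of Ighm was 1.50 in place of 2.42 in ovary and 0.82 in place of 1.94 in tumor. Pigr is near background, and its tumor to ovary difference of -3.05 was -0.37 with a floor at the array median and -1.05 with a pseudocount of 32. That between its tumor ages, -0.96, was 0.11 with the floor, where both signals equal the medians. That of Mzb1, -1.15, was -0.66 with the pseudocount. The cause of the other changes was not tested. Replicate numbers are not given in the labels, and the block pairs the pools by age.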

Other observations

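Probe sets assigned by symbol to 1 gene of the heavy, kappa and lambda chain loci other than Ighm, a set chosen after values were seen and without the surrogate light chain gene Igll1, were read as well. There were 32 such probe sets of 19 symbols, 23 of them above no array median and 8 above the median on at least 2 arrays. As read, 6 of the 8 had both ovary pools above both tumor pools (26.0% of probe sets that passed the same filter did). In ovary 7 of the 8 were higher at 10 months (47.8%). Nothing is read from these counts, since the set was chosen after values were seen. The 3 probe sets of Igha read 999.8, 776 and 522 in ovary at 5 months, 3276, 2458 and 1610 at 10 months, 659, 491 and 359 in tumor at 5 months, and 290.0, 226 and 211 at 10 months, so that all 3 gave the same order of the pools.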
